A study of Mus musculus with 4 samples.

Results

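Dlx and Fox genes encode DNA-binding proteins, and 10 of them that are named as factors of chondrocyte hypertrophy are described here in the cartilage of the mouse forelimb. They are the Dlx genes Dlx3, Dlx5 and Dlx6, the Fox genes Foxa2 and Foxa3, Foxc1 and Foxc2, and Foxo1, Foxo3 and Foxo4. The genes were listed by name, as 10 of the 34547 genes in the deposited tables. All 10 had a count in every library, of 51 or more, and all 10 were among the 16607 genes that passed the filter on low counts.

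The study compared proliferating chondrocytes (PC) of embryos at E14.5 with hypertrophic chondrocytes (HC) of embryos at E15.5 (E, embryonic day), in C57BL/6 mice with no further allele or agent named. PC has the replicates 1 and 2, and HC has the replicates 3 and 4. The cells were cut from frozen sections of forelimbs with a laser, and total RNA, 10 ng per library, was made into libraries with a kit meant for degraded RNA. The labels do not say whether replicates came from separate animals or pools, so the p-values measure only the spread between these libraries, which may be technical. Cell state and embryonic day change together in every library, so their parts cannot be told apart. In bulk RNA of this kind, fewer cells of a type and less RNA per cell cannot be told apart either.

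In the growth plate, chondrocytes first divide in columns, then leave the cell cycle and swell, and the swollen cells make type X collagen and call in vessels and bone-forming cells. Dlx proteins bind DNA through a homeodomain and act downstream of bone morphogenetic proteins, and Dlx5 and Dlx6 together are known to drive hypertrophy in the limb. FoxA and FoxC proteins bind through a forkhead domain and are known activators of hypertrophic and bone-forming gene programmes, while FoxO proteins are held out of the nucleus when insulin and growth factor signals lead to their phosphorylation by Akt.

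The libraries held between 15246529 (HC replicate 3) and 36644496 (PC replicate 2) estimated counts, with less depth in each HC library than in either PC library. Mitochondrial genes took 8.81% and 13.15% of the counts in PC and 20.16% and 14.11% in HC. The effective length of a transcript, which follows the length of the fragments, differed from its annotated length by a median of -172.8 and -153.3 bases in PC and -124.7 and -145.5 bases in HC. Of 10 genes fixed as markers of proliferating chondrocytes 6 fell and none rose. Of 10 markers of hypertrophic chondrocytes 5 rose and none fell, and of 10 markers of chondrocytes in general none passed. These lists were chosen with earlier results of these data known, so the counts are not independent evidence for the labels. Summed markers of hypertrophic chondrocytes were also higher in PC replicate 2 than in PC replicate 1, at 2037 against 603 CPM (counts relative to library size after edgeR's TMM scaling). Of 8 marker lists of other cell types, 7 had a higher summed level in both HC libraries, and their medians of log2 fold change ran from 1.53 (perichondrium) to 3.61 (muscle). The summed level was 31.5 and 25.7 CPM in PC against 257 and 138 CPM in HC for endothelium (2 of 9 tested genes rose), 14.6 and 29.0 against 374 and 177 CPM for macrophages and osteoclasts (3 of 9), and 710 and 1007 against 9979 and 3714 CPM for osteoblasts (1 of 7). It was 11.3 and 13.2 against 115 and 203 CPM for epidermis (2 of 8), 1248 and 1774 against 13720 and 4820 CPM for perichondrium (2 of 10), 18.2 and 24.6 against 289 and 78.2 CPM for muscle (1 of 8), and 28.0 and 45.4 against 311 and 292 CPM for red blood cells (3 of 8). Nerve was the exception, at 29.6 and 32.8 against 25.6 and 16.5 CPM (none of 8 rose and 1 fell). The lists of osteoblasts and perichondrium share Col1a1, so their summed levels are not independent of each other. Some single markers were at 0 in both HC libraries, namely Krt5 of epidermis, C1qa of macrophages, Myod1 of muscle, Twist2 of perichondrium, Bglap2 of osteoblasts, Hba-x of red blood cells and Nefl of nerve, and Cldn5 of endothelium was at 0 in both PC libraries. The part of these other cells, of depth and of RNA quality in the results below was not tested.

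Dlx3 and Foxa2 rose in HC, no member fell, and the other 8 did not pass the test. A change counts as passing here at an adjusted p under 0.05 in edgeR's quasi-likelihood test over all 16607 genes. Of those genes 2.75% rose and 1.96% fell by the same rule. By order of the libraries alone, the groups did not overlap for 8 members, as for 61.0% of all genes tested. Of these, 6 members had both HC libraries above both PC libraries, as did 27.7% of all genes, and 2 had both below, as did 33.3% of all genes. The 6 were Dlx3, Dlx5, Dlx6, Foxa2, Foxc1 and Foxo1, the 2 were Foxa3 and Foxo4, and Foxc2 and Foxo3 overlapped between the groups. The unadjusted p was under 0.05 for the same 8 genes that did not overlap, 6 higher and 2 lower, against 12.7% of all genes higher and 14.4% lower. The median log2 fold change of the 10 members was 0.98, and that of all genes tested was -0.04.

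**Figure D1:**
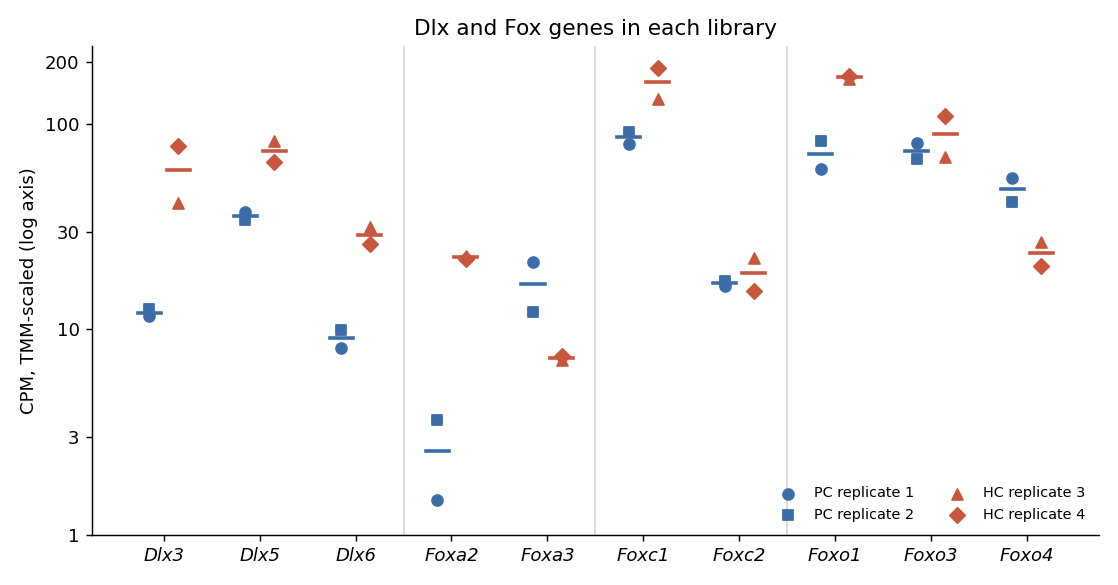
Level of each of the 10 genes in the 4 libraries, in CPM on a log axis, with PC replicates 1 and 2 and HC replicates 3 and 4 as separate points and the group mean as a bar. Foxa2 has the widest gap between the groups, from 3.63 CPM in the higher PC library to 22.1 CPM in the lower HC library, and the points of Foxc2 and Foxo3 overlap.

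The Dlx members carry closely related homeodomains. The stretches below are 30 coding bases for part of the helix that enters the DNA groove, taken from the GENCODE M21 transcripts with GRCm38 (mm10) coordinates, and capitals mark the 11 positions that are not the same in all 3 genes. They are shown because the reads of these genes are told apart by such differences.
Dlx3, chr11:95123418-95123447, plus strand, exon 3 of 3: tggttCcagaaCCGCCgCtcCaagTtCaaA
Dlx5, chr6:6878450-6878479, minus strand, exon 3 of 3: tggttTcagaaCAAAAgAtcCaagAtCaaG
Dlx6, chr6:6867050-6867079, plus strand, exon 3 of 3: tggttTcagaaTAAGCgCtcTaagTtTaaG
Dlx3 shared 22 of the 30 bases with Dlx5 and 22 with Dlx6, and Dlx5 shared 23 with Dlx6. Longer stretches separate the genes fully: of all 31-base words in their transcripts, the default word length of kallisto, the authors' tool, none in Dlx3 or Dlx5 occurred in another gene. In Dlx6 it was 7.43% of the words (169 of 2275), and no other member held any of them.

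Dlx3, a homeodomain factor of ectodermal organs, teeth and bone that is mutated in a hereditary disorder of hair, teeth and bone, lies on the plus strand of chromosome 11 (95120119 to 95125296). It was measured at 11.6 and 12.5 CPM in PC replicates 1 and 2 and at 41.5 and 77.9 CPM in HC replicates 3 and 4. The PC libraries were close to each other, the HC libraries differed, and the groups did not overlap. Dlx3 rose by 2.31 ± 0.41 on the log2 scale (SE, n = 2 against 2), which is 4.96-fold, with an adjusted p of 0.0427 in edgeR. The call held when any single library was left out (log2 fold change 1.74 to 2.66) and was lost when no TMM factors were used (adjusted p of 0.079 in edgeR). Epidermis is also known to make Dlx3, and the part of its rise in marker genes (11.3 and 13.2 CPM summed in PC, 115 and 203 CPM in HC) in this result was not tested.

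Dlx5 and Dlx6 are neighbours on chromosome 6 and are transcribed towards each other, Dlx6 from the plus strand (6863334 to 6868568) and Dlx5 from the minus strand (6877805 to 6882085). Loss of both is known to cause defects of limbs, jaw and inner ear. Dlx5, also a marker of early osteoblasts, was at 37.25 and 34.2 CPM in PC and at 83.1 and 65.4 CPM in HC. Both HC libraries lay above both PC libraries, but the log2 fold change of 1.06 ± 0.30 had an adjusted p of 0.0942 in edgeR and did not pass. Dlx6 was at 8.17 and 9.99 CPM in PC and at 31.5 and 26.2 CPM in HC. Its groups did not overlap either, and its log2 fold change of 1.67 ± 0.35 (3.17-fold) narrowly missed the threshold, with an adjusted p of 0.0573 in edgeR. Leaving out HC replicate 3 gave Dlx6 an adjusted p of 0.00905, and leaving out HC replicate 4 gave 0.00387, but it was 0.462 without PC replicate 1 and 0.205 without PC replicate 2 (edgeR). The same test without HC replicate 4 also called Dlx5, with an adjusted p of 0.0153. Antisense transcripts are annotated over Dlx6, and whether the counting used strand is not stated in the labels or tables, so reads of both strands at Dlx6 cannot be told apart.

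For 6 of the Fox members, the same kind of stretch is shown, namely the 30 bases that code for part of the recognition helix of the forkhead domain. Capitals mark the 14 positions that are not the same in all 6 genes.
Foxa2, chr2:148044252-148044281, minus strand, exon 3 of 3: aacTCcatCcgCcaCTCTctCtcCTtCAaC
Foxa3, chr7:19014678-19014707, minus strand, exon 2 of 2: aacTCcatCcgGcaTTCGctGtcCTtCAaT
Foxc1, chr13:31807577-31807606, plus strand, exon 1 of 1: aacAGcatAcgGcaCAACctCtcGCtCAaC
Foxc2, chr8:121116963-121116992, plus strand, exon 1 of 1: aacAGcatCcgCcaCAACctGtcACtCAaT
Foxo3, chr10:42197872-42197901, minus strand, exon 3 of 4: aacTCcatCcgGcaCAACctGtcCCtGCaC
Foxo4, chrX:101258177-101258206, plus strand, exon 2 of 3: aacTCcatCcgTcaCAACctGtcCTtGCaC
Foxo3 and Foxo4 were the most alike of these 6 genes, with 28 of 30 bases shared, and stretches of different subfamilies shared 19 to 23. The pair Foxa2 and Foxa3 shared 25 bases, as did Foxc1 and Foxc2. The transcripts of these genes differ enough to be counted separately. The share of 31-base words that occurred in any other gene was highest for Foxc2, at 1.37% (37 words, 34 of them in Foxc1), and was 0.338% for Foxa2 and 0 for Foxo4.

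Foxa2, a pioneer factor that opens chromatin in liver, lung and floor plate and is known to drive type X collagen in hypertrophic cartilage, lies on the minus strand of chromosome 2 (148042877 to 148046969). It was at 1.48 and 3.63 CPM in PC replicates 1 and 2, from 51 and 140 counts, and at 22.8 and 22.1 CPM in HC replicates 3 and 4. The HC libraries were nearly equal, the PC libraries differed 2.45-fold, and the gap between the groups was 6.07-fold at its narrowest. Foxa2 rose by 3.13 ± 0.56 on the log2 scale (SE, n = 2 against 2), which is 8.74-fold and the greatest change among the 10, with an adjusted p of 0.044 in edgeR. PC replicate 2, which held more Foxa2 than PC replicate 1, also held more of the type X collagen gene Col10a1, at 876 against 109 CPM. Without PC replicate 1 the log2 fold change of Foxa2 was 2.59 and its adjusted p 0.0711 in edgeR, so the call rests on that library. Leaving out PC replicate 2 gave 3.88.

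Foxa3, the partner of Foxa2 in liver and growth plate, lies on the minus strand of chromosome 7 (19013284 to 19023538) and was ordered the other way. It was at 21.3 and 12.1 CPM in PC and at 7.06 and 7.43 CPM in HC, so both HC libraries lay below both PC libraries. The log2 fold change of -1.20 ± 0.45 had an adjusted p of 0.159 in edgeR and did not pass, except without HC replicate 4 (-1.29, adjusted p of 0.0461). In TPM, the share of transcripts after scaling to length, which allows a comparison between genes, Foxa3 was at 17.1 and 8.41 in PC against 2.705 and 6.11 for Foxa2, and at 2.94 and 4.85 in HC against 20.4 and 24.9 for Foxa2. Foxa3 was thus the higher of the pair in both PC libraries and Foxa2 the higher in both HC libraries.

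Foxc1, needed for the skull, the ribs and the vessel wall, lies on the plus strand of chromosome 13 (31806633 to 31812476). It was at 80.6 and 92.2 CPM in PC and at 132 and 189 CPM in HC. The groups did not overlap in CPM, and the log2 fold change of 0.90 ± 0.32 had an adjusted p of 0.144 in edgeR. In TPM, where the PC libraries were at 21.2 and 21.2 and the HC libraries at 18.4 and 41.0, the groups did overlap. Without HC replicate 3 the log2 fold change was 1.10 and passed (adjusted p of 0.0347 in edgeR). Foxc2, its close relative in somite, kidney and lymphatic vessels, lies on the plus strand of chromosome 8 (121116171 to 121118895). It was at 16.3 and 17.2 CPM in PC and at 22.4 and 15.35 CPM in HC, with a log2 fold change of 0.17 ± 0.37 (adjusted p of 0.809 in edgeR). Its sign is not settled by these libraries, since leaving out HC replicate 3 gave -0.16.

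Foxo1, a brake on the cell cycle and an activator of stress defence genes, lies on the plus strand of chromosome 3 (52268336 to 52353221). It was at 60.3 and 82.6 CPM in PC and at 166 and 172 CPM in HC. The HC libraries were close together above both PC libraries, and the log2 fold change of 1.24 ± 0.31 (2.37-fold) had an adjusted p of 0.0763 in edgeR. It passed without HC replicate 3 (adjusted p of 0.0252) and without HC replicate 4 (0.0255), and not without PC replicate 1 (0.7) or PC replicate 2 (0.202), all in edgeR. Foxo3, which shares most targets with Foxo1, lies on the minus strand of chromosome 10 (42181841 to 42276755). It was at 81.2 and 67.4 CPM in PC and at 69.25 and 110.3 CPM in HC, so the groups overlapped (log2 fold change 0.27 ± 0.34, adjusted p of 0.661 in edgeR). Without HC replicate 4 its sign turned (-0.15).

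Foxo4, the X-linked member of the same subfamily (plus strand, 101254528 to 101260873), was at 54.95 and 42.0 CPM in PC and at 26.8 and 20.4 CPM in HC. Both HC libraries lay below both PC libraries. The log2 fold change of -1.04 ± 0.33 had an adjusted p of 0.115 in edgeR and passed without HC replicate 3 (-1.28, adjusted p of 0.0283). The FoxO genes were therefore ordered in different ways: Foxo1 was higher in both HC libraries, Foxo4 was lower in both, and Foxo3 overlapped. Whether their changes differ from each other was not tested.

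Leaving out either HC library raised the number of members that passed. Without HC replicate 3, Dlx3, Dlx6, Foxa2, Foxc1 and Foxo1 rose and Foxo4 fell, where 13.1% of all genes tested rose and 15.2% fell. Without HC replicate 4, Dlx3, Dlx5, Dlx6, Foxa2 and Foxo1 rose and Foxa3 fell, where 18.3% of all genes rose and 20.7% fell. Without PC replicate 1 only Dlx3 passed, where 2.08% of all genes rose and 1.41% fell. Without PC replicate 2 Dlx3 and Foxa2 passed, where 3.28% rose and 2.98% fell. In those 2 fits Dlx5, Dlx6, Foxa3, Foxc1, Foxo1 and Foxo4 did not pass (adjusted p of 0.205 or more for Dlx6 and 0.202 or more for Foxo1 in edgeR). Dlx3 was the only member that passed in all 4 of these fits. DESeq2 on all 4 libraries called Dlx3, Dlx5, Dlx6, Foxa2 and Foxo1 higher and no member lower, where it called 9.51% of genes higher and 8.34% lower. With no TMM factors, with limma on log2 TPM, or with an offset for effective length, no member passed.

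**Figure D2:**
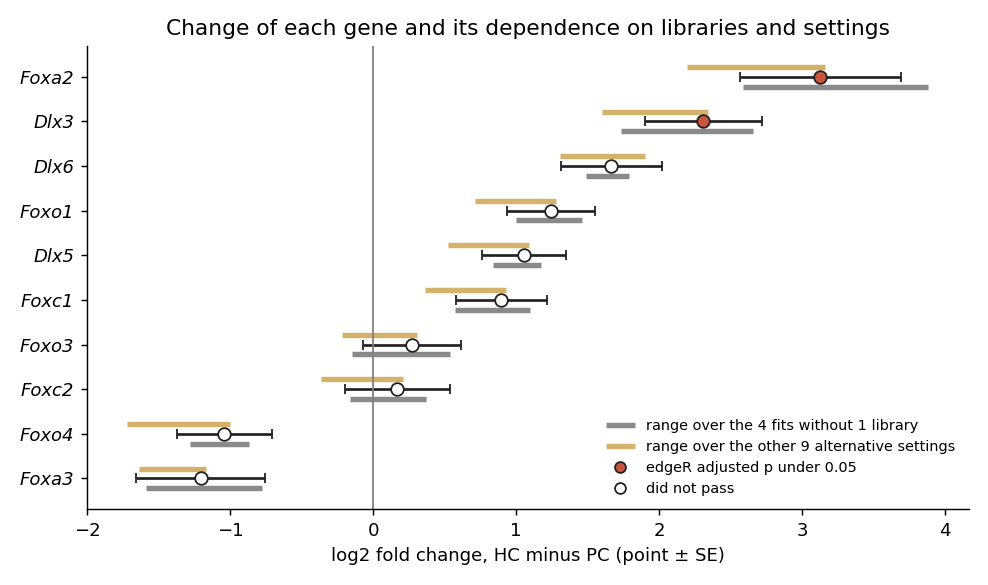
Log2 fold change of HC over PC for each gene, as a point (red where it passed in edgeR) with the SE, a grey bar for the range over the 4 fits without 1 library and a yellow bar for the range over the other 9 settings. Both bars of Foxa2 (3.13), Dlx3 (2.31) and Dlx6 (1.67) lie above 0, while those of Foxc2 and Foxo3 cross 0.

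Levels of different genes are compared here in TPM. In PC the order of the means was Dlx5 (40.15), Foxo3 (27.5), Foxo4 (25.9), Foxc1 (21.2), Foxa3 (12.75), Foxo1 (11.7), Foxc2 (9.16), Dlx3 (6.89), Dlx6 (6.46) and Foxa2 (4.41). The ranges of the libraries overlapped between Foxo3 and Foxo4, between Foxo4 and Foxc1 and between Foxa3 and Foxo1, and not between the other neighbours. In HC Dlx5 again led (58.0), and Foxa2 had moved from the lowest place to 22.65. Foxc1 (29.7), Dlx3 (26.2), Foxo3 (24.1), Foxa2, Foxo1 (20.2) and Dlx6 (18.7) followed Dlx5, and each overlapped its neighbour in that order. Foxo4 (7.69), Foxc2 (7.10) and Foxa3 (3.90) were lowest. Foxo4 lay below both values of Dlx6, the neighbour above it, Foxo4 and Foxc2 overlapped, and Foxa3 lay below both values of Foxc2. The FoxO gene of the highest mean was Foxo3 in both groups, and Foxo1 and Foxo4 exchanged places, from 11.7 and 25.9 TPM in PC to 20.2 and 7.69 TPM in HC.

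**Figure D3:**
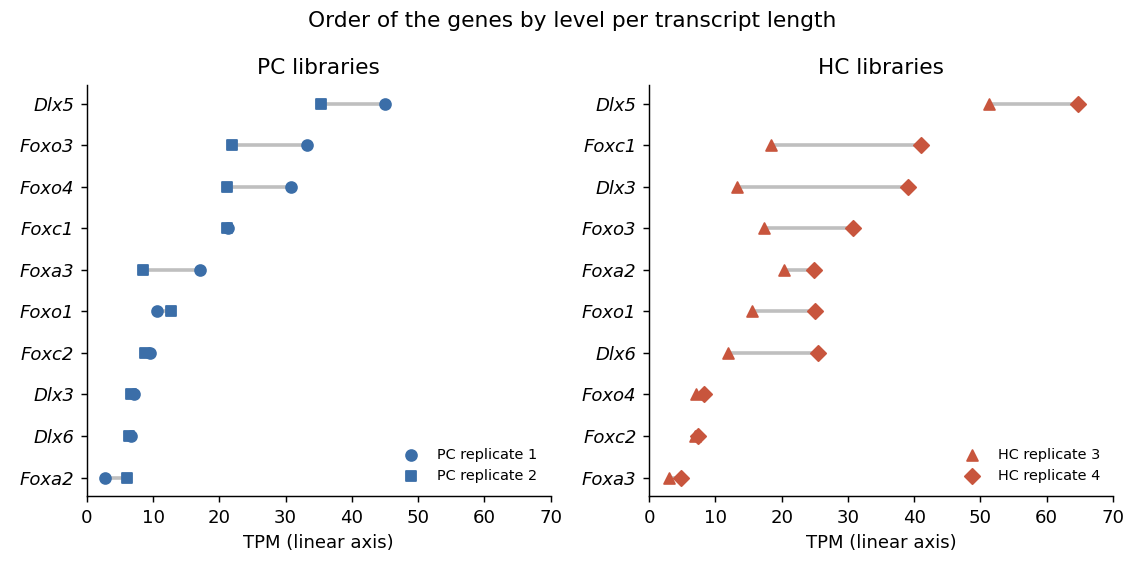
TPM of each gene in the PC libraries (left) and the HC libraries (right) on a shared linear axis, ordered by the mean, with each library as a point and a grey line between them. Dlx5 is at the top in both groups, at means of 40.15 and 58.0 TPM, and Foxa2 goes from the bottom in PC (4.41) to the middle in HC (22.65).

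The Foxa2 estimate was split among several annotated transcripts, and the split differed between the groups. Foxa2-204, a short annotated form of 865 bases, took 73.6% and 86.6% of the counts in PC and 73.0% and 45.2% in HC. Foxa2-202, which starts at a more downstream first exon, had 4.425 and 0 estimated counts in PC and 75.9 and 268 in HC. Foxa2-201, which starts at the more upstream first exon, had 8.03 and 18.8 estimated counts in PC and 0 in both HC libraries. These estimates rest on few reads, their assignment error is unknown, and no test was made of them.

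RefSeq gives windows for 3 Foxa2 starts. The 250 bases before 2 of these starts differ in composition, and they are printed here because the transcripts from these 2 starts were ordered in opposite ways. Foxa2-201 had an estimated count above 0 in both PC libraries alone, and Foxa2-202 was higher in both HC libraries. The sequences are from RefSeq on GRCm38.p6 and overlap no annotated exon of the 10 members. Exons of other genes were not checked. Capitals mark a match to the forkhead variant motif TGTTTGT.
Foxa2-201 start, chr2:148046970-148047219, minus strand: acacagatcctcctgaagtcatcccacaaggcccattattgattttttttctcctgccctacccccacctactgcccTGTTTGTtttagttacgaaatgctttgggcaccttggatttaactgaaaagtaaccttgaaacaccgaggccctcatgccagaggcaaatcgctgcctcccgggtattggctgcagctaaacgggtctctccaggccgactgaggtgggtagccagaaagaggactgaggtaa
Foxa2-202 start, chr2:148045949-148046198, minus strand: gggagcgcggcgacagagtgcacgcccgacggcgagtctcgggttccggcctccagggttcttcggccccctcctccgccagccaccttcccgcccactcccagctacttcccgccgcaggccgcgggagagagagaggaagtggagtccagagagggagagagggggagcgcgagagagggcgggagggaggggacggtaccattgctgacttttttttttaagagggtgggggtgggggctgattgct
The window before Foxa2-201 had a GC content of 50.8% and that before Foxa2-202 one of 67.2%, where the median of all windows was 52.4%. Both strands were searched for TGTTTAC and TGTTTGT (forkhead), TAATTA (Dlx-type homeodomain, its own reverse complement) and TGTGGT (Runx). The upstream window held TGTTTGT once, which 5.84% of the 32851 windows of this length hold, and the downstream window held none of the 4 motifs. The window before the start of Foxa2-203, which is not printed, had a GC content of 54.4% and also held none of the 4 motifs. TGTTTAC was in 3.17%, TAATTA in 4.84% and TGTGGT in 14.0% of the windows. Windows were found for 5 of the 10 members, namely Foxa2, Foxa3, Foxc1, Foxo1 and Foxo3, and the only match among the other 4 genes was TGTGGT in that of Foxc1. A match describes letters in the window and says nothing about binding.

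Among the other members, Dlx3, Foxa3, Foxc1, Foxc2 and Foxo1 have a single transcript in the tables. Dlx5-201 took between 69.8% (HC replicate 4) and 93.3% (PC replicate 2) of the Dlx5 counts, and Dlx6-202 took at least 91.9% of the Dlx6 counts. In HC replicate 4 a retained-intron form, Dlx6-204, held 47.3 estimated counts, or 8.13%, and 11.1 of the 25.4 TPM of Dlx6, since it is only 383 bases long. The TPM of Dlx6 in that library thus depends on that form more than its CPM does. Foxo3-201 took 35.8%, 43.3% and 35.6% of the Foxo3 counts in PC replicates 1 and 2 and HC replicate 4 and nearly none (0.00144%) in HC replicate 3.

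**Figure D4:**
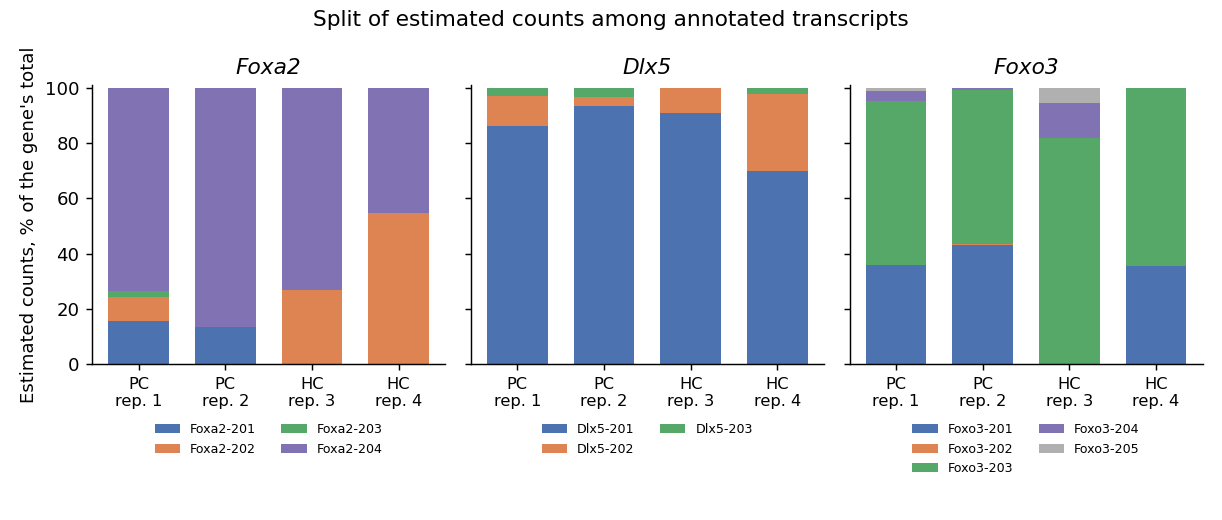
Share of each gene's estimated counts assigned to each of its annotated transcripts, in % per library, for Foxa2, Dlx5 and Foxo3. In Foxa2 the share of Foxa2-202 is 8.68% and 0% in PC and 27.0% and 54.8% in HC.

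The genes whose pattern over the 4 libraries lay nearest to each member were found by the Euclidean distance of log2 CPM centred on the gene's mean, among protein-coding genes of at least 10 TPM on average in the higher group. Nearest to Dlx3 were Tcf7l2 (distance 0.0997), Sdc2 (0.107) and the forkhead gene Foxn3 (0.127). Nearest to Foxa2 were Gab2 (0.218), Lemd1 (0.265) and Dpysl3 (0.314). Dlx6 was nearest to Arhgap42 (0.086), Foxo1 to Zfp422 (0.0392) and Foxo4 to Tecpr2 (0.0187). Among the members themselves the closest pairs were Foxa3 with Foxo4 (0.458) and Dlx6 with Foxo1 (0.472). With 4 libraries many genes lie near any pattern, and the distances are descriptions only.

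Of the other Dlx and Msx genes, relatives of the Dlx members, 4 were tested and none passed (median log2 fold change 0.16, against -0.04 for all genes). Dlx1, a partner of Dlx2 in the forebrain, had 78 and 44 counts in PC and 14 and 54 in HC, and Dlx2 had 0 and 9 against 36 and 30 (adjusted p of 0.197 in edgeR). Msx1 and Msx2, homeodomain repressors that bind Dlx proteins, had log2 fold changes of 0.24 ± 0.73 and -0.39 ± 0.73. Dlx4 had 0 to 17 counts per library and was not tested. Dlx6os1 and Dlx6os2, antisense transcripts at Dlx6, were looked for and had no entry under these names among the genes matched in the deposited data.

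Of 37 other forkhead genes in the tables, 20 were tested (median log2 fold change 0.97). Of these 2 rose and 1 fell, where 2.75% of all genes rose and 1.96% fell. Foxp1, a repressor known to bind Runx2, rose from 11.7 and 18.4 CPM in PC to 75.7 and 107 CPM in HC, by 2.61 ± 0.38 (adjusted p of 0.037 in edgeR). Foxn3, a checkpoint repressor, rose by 2.18 ± 0.39 (adjusted p of 0.0429). Foxm1, which drives entry into mitosis, fell, from 70.5 and 40.55 CPM in PC to 10.7 and 5.09 CPM in HC (log2 fold change -2.82 ± 0.52, adjusted p of 0.0458), and its log2 fold change was -3.48 without HC replicate 3. Foxp2 and Foxp4, which work with Foxp1, were at -1.04 ± 0.38 and -0.81 ± 0.48 and did not pass. Foxa1 and Foxo6, the remaining genes of the FoxA and FoxO subfamilies, had at most 27 and 35 counts in a library and were not tested, so the members account for nearly all FoxA and FoxO counts.

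Of genes known as targets in hypertrophy and bone formation, 5 of 14 tested rose and none fell (median log2 fold change 4.60). Of all genes 2.75% rose and 1.96% fell. In 13 of the 14 both HC libraries lay above both PC libraries, as for 27.7% of all genes. Col10a1, Mmp13, Ibsp, Alpl, Spp1, Ihh, Pth1r and Mef2c are also among the markers of hypertrophic chondrocytes above, so the counts are not separate results. Ihh and Pth1r are also in the list of signals and repressors below. The list was chosen with earlier results of these data known and is not independent evidence of its direction. Mef2c, a known driver of hypertrophy, rose by 3.11 ± 0.41, Phex by 4.65 ± 0.70, and the phosphatase gene Alpl by 4.56 ± 0.69 (adjusted p of 0.0359, 0.037 and 0.037 in edgeR). Without PC replicate 1 Phex was at 3.97 and Alpl at 3.87, and without PC replicate 2 they were at 5.80 and 5.77. Ihh, the hedgehog signal of prehypertrophic cells, rose by 5.46 ± 0.97 (adjusted p of 0.0429). Ihh was at 3501 CPM in HC replicate 3 and 583 CPM in HC replicate 4, and its log2 fold change was 3.62 without the former and 6.19 without the latter. Runx2, the master factor of bone formation, had 154 and 172 CPM in PC against 370.2 and 697 CPM in HC, with 1.71 ± 0.40 and an adjusted p of 0.0705. Sp7, which acts with Runx2, overlapped between the groups (0.58 ± 0.38, adjusted p of 0.391). Col10a1, Mmp13, Ibsp and Spp1 did not pass either, although for each both HC libraries lay above both PC libraries. The log2 fold change of Col10a1 was 4.64 without PC replicate 1 and 7.65 without PC replicate 2.

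Of 42 tested genes known as FoxO targets, 7 rose and 1 fell, and the median log2 fold change was 1.02. The share that passed was 19.0%, against 4.71% of all genes. In 26 both HC libraries lay above both PC libraries, as for 27.7% of all genes. This list too was chosen with earlier results of these data known and is not independent evidence of its direction. Pdk4, whose kinase shuts pyruvate out of oxidation, rose from 4.39 and 7.995 CPM in PC to 71.3 and 97.9 CPM in HC, by 3.77 ± 0.44 (adjusted p of 0.0359 in edgeR). Cdkn1a, which encodes the cell cycle inhibitor p21, rose by 3.03 ± 0.42, the PI3K inhibitor gene Pik3ip1 by 3.31 ± 0.51 and the autophagy gene Map1lc3b by 2.04 ± 0.33 (adjusted p of 0.0359, 0.037 and 0.0392). The other genes that rose were Bcl2l11, Gadd45a and Ccng2, named after their values were seen. Ccnd1, which encodes cyclin D1 and is repressed by FoxO proteins, fell from 98.0 and 94.2 CPM in PC to 29.1 and 29.7 CPM in HC (log2 fold change -1.71 ± 0.28, adjusted p of 0.0392). Cdkn1b, Sesn1 and Sesn3, which are also FoxO targets, were at -0.43 ± 0.32, 1.24 ± 0.33 and 0.85 ± 0.30 and did not pass. Many of these genes also respond to other regulators, and which factor acts on them was not tested. Without PC replicate 1 the calls of Pik3ip1, Ccnd1, Gadd45a and Ccng2 were lost, and without PC replicate 2 those of Map1lc3b, Gadd45a and Ccng2. Without HC replicate 4 the log2 fold change of Cdkn1a was 2.43.

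Of 41 genes that control FoxO proteins after translation, 2 rose and none fell, which is 4.88%, near the 4.71% of all genes that passed (median log2 fold change 0.22). Sgk1, a kinase that like Akt phosphorylates FoxO proteins, rose by 3.13 ± 0.55 (adjusted p of 0.0425 in edgeR), and Pik3r1, the regulatory subunit of PI3K, by 2.10 ± 0.40 (0.0479). The Pik3r1 call was lost without PC replicate 1, and without HC replicate 4 the log2 fold change of Sgk1 was 2.20. Akt1 and Akt2, which encode Akt kinases, were at -0.48 ± 0.39 and -0.43 ± 0.39 and did not pass. RNA levels do not report phosphorylation or the place of FoxO proteins in the cell.

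Genes listed as signals and repressors upstream of Dlx and Fox genes moved in both directions. Whether they act on the members in this tissue was not tested. Of 27, 4 rose and 3 fell, where 2.75% of all genes rose and 1.96% fell (median log2 fold change of the list -0.81). Bmp2 and Bmp6, ligands that induce Dlx genes, rose by 3.14 ± 0.38 and 4.13 ± 0.50 (adjusted p of 0.0359 for both in edgeR). Ihh rose as given above, and Pth1r, the receptor that holds back hypertrophy, rose by 2.29 ± 0.41 (0.0433). Gli1 and Gli2, which carry the hedgehog signal to genes, fell by 6.14 ± 0.64 and 2.31 ± 0.42, and Sox5, which keeps chondrocytes immature, fell by 2.75 ± 0.33. Without HC replicate 4 the log2 fold change was -7.18 for Gli1 and 3.49 for Bmp6. Nkx3-2, a repressor of Runx2 and of hypertrophy, had 620 and 195 counts in PC and 16 and 0 in HC, with an adjusted p of 0.161. Of 7 proteins that bind Dlx proteins, Ndn fell by 1.88 ± 0.29 and Magel2 by 2.28 ± 0.43 (adjusted p of 0.037 and 0.0479 in edgeR). None rose, the median was -1.56, and 1.96% of all genes fell by the same rule. The Magel2 call was lost without PC replicate 1.

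**Figure D5:**
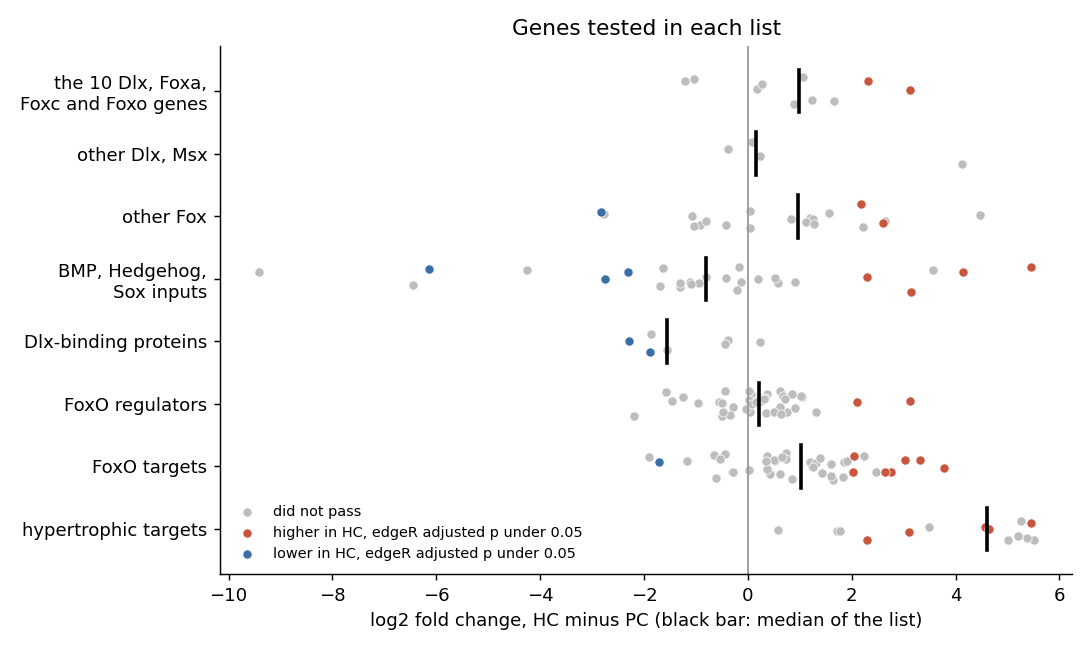
Log2 fold change of HC over PC for each tested gene of the members and of the 7 related lists, with a black bar at the median of each list, red points for genes that rose and blue points for genes that fell. The median of the hypertrophic targets lies at 4.60 and that of the Dlx-binding proteins at -1.56, and the lowest fitted values belong to genes with no or almost no count in HC, whose fitted change depends on the prior count.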

How the data were processed

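RNA of 2 PC and 2 HC libraries was sequenced. The authors trimmed reads with Trimmomatic 0.36 and assigned them to transcripts with kallisto 0.43.1 on mm10, per the submitters' processing notes. The deposited tables give, per the file headers, an estimated count and a TPM value for each transcript. Estimated counts are reads shared by likelihood among transcripts of the same sequence, and TPM is scaled to length and a constant sum, which removes depth. Strand setting and assignment error: not given in the sources used here.

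Of 109282 transcripts, 107987 matched GENCODE M21 (GRCm38) by identifier and were summed to 34547 genes; the 1295 others held 0.362% to 0.534% of a library's counts. Sums of estimated counts were rounded, filtered with filterByExpr (16607 genes kept), scaled with TMM (factors 1.14, 1.058, 0.812 and 1.021 for PC 1, PC 2, HC 3 and HC 4) and tested with edgeR 4.0.16's quasi-likelihood F-test in R 4.3.3, with 2 residual degrees of freedom, Benjamini-Hochberg adjustment over all genes and a threshold of 0.05. The SE comes from the coefficient and the F statistic. Replicates differed by more than counting noise (chi-square per degree of freedom 101.8 in PC and 193.2 in HC). Each library was treated as its own sample in the fits. Such a spread may be technical and cannot show that replicates came from separate animals. The script was tested on simulated counts with the same fixed dispersion for every gene, which was not estimated from these data. That test checks the code and says nothing about the calls made here. In all, 13 alternatives were run, among them DESeq2 1.42.0 and limma 3.58.1 on log2(TPM + 1) and log2(TPM + 0.1). TPM served for levels between genes.

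Named are all members, from each list up to 4 genes per direction of lowest p that passed and averaged 1 TPM or more in whichever group was higher, a few genes set by name whatever their test, and the 3 nearest in pattern. Members and lists were chosen with earlier results of these data known. Some genes and a sequence among those set by name are not reported here.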

Additional observations from a re-analysis of the deposited data

How the results depend on the processing

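Across 13 alternatives, Dlx3, Dlx5, Dlx6, Foxa2, Foxc1 and Foxo1 stayed higher in HC and Foxa3 and Foxo4 lower. Dlx3 passed in 9, Foxa2 in 8, Dlx6 in 5, Foxo1 in 3, Dlx5 in 2, and Foxa3, Foxc1 and Foxo4 in 1 each. Foxc2 turned to -0.12 with library size alone, -0.33 and -0.36 with limma on log2(TPM + 1) and log2(TPM + 0.1), and ranged from -0.16 (without HC replicate 3) to 0.37 with 1 library left out. Foxo3 turned to -0.21 and -0.22 in the same 2 limma fits and ranged from -0.15 (without HC replicate 4) to 0.54 with 1 library left out. The cause was not tested.

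The counts of genes that passed were 457 higher and 325 lower over all genes, 2 and 0 among the members, and 18 and 7 among the 147 tested genes of the other lists. With library size alone or limma on either TPM scale all of these counts were 0, although 4394 genes (library size alone, edgeR), 4260 and 3993 genes (limma) had an unadjusted p under 0.05, among them 7, 4 and 4 members. These settings moved the median log2 fold change of all genes to -0.29, -0.39 and -0.59. DESeq2 called 1644 genes higher and 1442 lower, 5 members higher, and 39 and 19 list genes. No filter gave 963 and 965 genes, 3 members higher, and 32 and 16 list genes, and a minimum of 1 CPM in 2 libraries gave 11 list genes lower. The effective length offset gave 268 and 165 genes, 0 members higher (7 at an unadjusted p under 0.05 in edgeR) and 3 list genes lower. DESeq2's size factors in edgeR and leaving out mitochondrial genes and Gm10800 kept every such count within 1.5 times.

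With 1 library left out, genes ranged from 379 to 3331 higher and 257 to 3775 lower, members from 1 to 5 higher and 0 to 1 lower, and list genes from 22 to 44 higher and 6 to 29 lower. These fits assume that the lone library of a group varies like the pair in the other. No paired analysis was possible because PC is numbered 1 and 2 and HC 3 and 4, with no number shared. With 2 libraries a group, precision is limited by the number of libraries, and for Foxa2 also by its 51 counts in PC replicate 1.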

Other observations

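The windows of 250 bases before RefSeq starts (GRCm38.p6) were also searched at genes known as targets of Dlx, Fox and Runx factors, on both strands. That of Col10a1, which encodes type X collagen, held TAATTA once. Mmp13, which encodes a collagenase of late hypertrophic cells, held TGTTTAC once and TGTGGT once, and Runx2 held TGTGGT once. A window of Mef2c held TAATTA once, a window of Spp1 held TGTGGT once and another window of Spp1 held TAATTA once. The windows of Ihh, Alpl and Ibsp held none of the 4 motifs searched. All are short, the share of all windows that hold each is given above, and a match describes letters only.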
